A study of Homo sapiens with 8 samples.

Results

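The small RNA libraries of HAP1 cells with and without BCDIN3D are described here, name by name. Of the 2656 mature microRNA names in the count files, 2244 had fewer than 40 counts summed over the 4 libraries, and the remaining 15.5% are the names described. The sum was taken over both groups together, so it did not use the difference between them.

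HAP1 cells are a human line with an almost haploid genome that came from a chronic myeloid leukaemia. Unedited HAP1 cells (WT) were compared with cells of 1 BCDIN3D knockout clone (KO, clone 11), so differences between clones and the loss of the gene cannot be told apart. Both groups grew for 48 h in IMDM with 10% serum, their RNA had an integrity number of 10, and libraries were made with a TruSeq small RNA kit. Each group had 2 libraries, replicate 1 dated 6 May in its label and replicate 2 dated 9 May. The design text calls the replicates biological, without saying whether they came from separately thawed cultures, and p-values measure only the spread between these libraries, which may be technical.

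MicroRNAs are cut from hairpin precursors by Drosha and then Dicer. A hairpin gives a mature strand from its 5′ side (the 5p arm) and 1 from its 3′ side (the 3p arm), of which usually only 1 is kept in an Argonaute protein. The kept strand finds messenger RNAs mainly through its seed, bases 2 to 8 from its 5′ end. BCDIN3D methylates the 5′ monophosphate of RNA, with histidine tRNA as its best known substrate and microRNA precursors proposed as others, and Dicer recognises that same 5′ phosphate.

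Messenger RNA of BCDIN3D itself was lower in KO. In RNA-seq libraries made from the same RNA, BCDIN3D stood at 7.43 and 4.96 CPM (counts scaled to a common library total) in WT and at 1.54 and 2.69 CPM in KO. The KO values rest on 33 and 54 counts. The groups did not overlap, and the transcript was still counted in KO.

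Mature sequences were found in a RefSeq table (GRCh38.p14) for 359 of the names described. They are printed 5′ to 3′ with the seed in capitals. The first set holds the most abundant names that had a sequence, since they set the composition of the libraries.

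miR-3168: gAGUUCUAcagucagac
miR-8052: cGGGACUGuagagggcaugagc
miR-1246: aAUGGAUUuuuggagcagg
miR-99b-5p: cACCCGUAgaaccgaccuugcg
miR-4530: cCCAGCAGgacgggagcg
miR-3677-5p: cAGUGGCCagagcccugcagug
miR-6757-5p: uAGGGAUGggaggccaggauga
miR-182-5p: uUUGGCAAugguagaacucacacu
miR-1290: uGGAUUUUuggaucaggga

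Members of the miR-30 and miR-92 families form the next set, because names with 1 seed are set side by side in the results.

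miR-30a-5p: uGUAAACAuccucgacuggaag
miR-30e-5p: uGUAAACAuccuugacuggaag
miR-30c-5p: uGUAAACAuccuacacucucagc
miR-92a-3p: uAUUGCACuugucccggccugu
miR-92b-3p: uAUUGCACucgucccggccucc
miR-25-3p: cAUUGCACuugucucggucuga

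The last set holds names whose counts turned on 1 library, or whose counts ran together with those of another name.

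miR-200a-5p: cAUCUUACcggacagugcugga
miR-217-5p: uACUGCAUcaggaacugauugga
miR-4753-3p: uUCUCUUUcuuuagccuugugu
miR-2467-5p: uGAGGCUCuguuagccuuggcuc
miR-103a-3p: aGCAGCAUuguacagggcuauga
miR-103b: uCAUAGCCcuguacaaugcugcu
miR-1275: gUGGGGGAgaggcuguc
miR-6795-5p: uGGGGGGAcaggaugagaggcugu
miR-6083: cUUAUAUCagaggcuguggg

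The libraries were shallow. MicroRNA counts totalled 236073 and 266466 in WT and 157706 and 346626 in KO, and 97.1% to 97.9% of them fell on the names described. KO replicate 1 was the shallowest and KO replicate 2 the deepest, so the KO libraries bracketed the WT libraries. A single count was worth 4.24 and 3.75 CPM in WT and 6.34 and 2.88 in KO. The limit that a count of 0 allows, taken as 3 counts, was 12.7 and 11.3 CPM in WT and 19.02 and 8.65 CPM in KO. Reads carried no molecular identifiers, so intervals and limits cover counting error alone.

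Deeper libraries held more names. At least 1 count was found for 1239 and 1330 names in WT and for 1059 and 1408 in KO. Thinned by formula to the depth of KO replicate 1, the other libraries would have held 1156 (WT replicate 1), 1232 (WT replicate 2) and 1305 (KO replicate 2). The order of the libraries was the same after thinning, so they also differed in the number of names at equal depth. Of the 2212 names with any count, 404 were counted in all 4 libraries and 683 in a single library. Among the names described, 45 and 28 were at 0 in the WT libraries and 72 and 11 in the KO libraries, and 113 had 10 or more counts in every library. Only 6 of them were at 0 in both WT libraries, and 0 were at 0 in both KO libraries.

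A few names held most of the counts in every library. The 15 most abundant took 89.2% and 89.4% of all microRNA counts in WT and 86.3% and 88.2% in KO. Shares given for single names are of the same totals. The largest was that of miR-3168 (chr13:41101076-41101092, minus strand), at 43.4% and 34.7% in WT and 32.5% and 31.1% in KO. Both KO shares lay below both WT shares, and the WT replicates lay further apart than the KO replicates. As background, the letters of miR-3168 closely resemble part of the RNA adapter that Illumina small RNA kits ligate to 5′ ends. No adapter sequence was compared here, and the reads were not examined.

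miR-30d-5p, the leading member of the miR-30 family, came next with 15.3% and 22.4% of counts in WT and 25.5% and 23.7% in KO. Its WT replicate 1 stood well below the other 3 libraries. miR-8052 (chr11:130666745-130666766, plus strand) was the steadiest of the large names, at 6.01% and 6.46% in WT and 6.09% and 6.08% in KO. miR-1246 (chr2:176601024-176601042, minus strand), whose sequence occurs in the U2 small nuclear RNA, took 4.86% and 4.41% in WT and 3.92% and 6.26% in KO. The KO libraries lay on either side of the WT libraries for this name.

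miR-99b-5p (chr19:51692618-51692639, plus strand), which is made from a cluster with let-7e and miR-125a, had 3.45% and 4.87% in WT and 3.63% and 5.13% in KO. Within each group replicate 2 was higher than replicate 1, and the groups overlapped. miR-30e-5p (chr1:40754371-40754392, plus strand) had 2.47% and 3.06% in WT and 4.23% and 4.02% in KO, without overlap. miR-6757-5p (chr12:53056949-53056970, plus strand) had 1.20% and 1.70% in WT and 1.37% and 2.58% in KO, with KO replicate 2 standing highest. miR-92a-3p, of the miR-17-92 cluster and its duplicate on the X chromosome, had 1.52% and 0.995% in WT and 1.32% and 0.844% in KO, so that replicate 1 was the higher library in each group. miR-182-5p (chr7:129770447-129770470, minus strand), made with miR-183 and miR-96, had 1.27% and 0.730% in WT and 1.02% and 1.08% in KO. miR-548aw and miR-1290 stayed between 0.670% and 1.05% in every library, and the other 4 of the 15 are described further on.

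**Figure D1:**
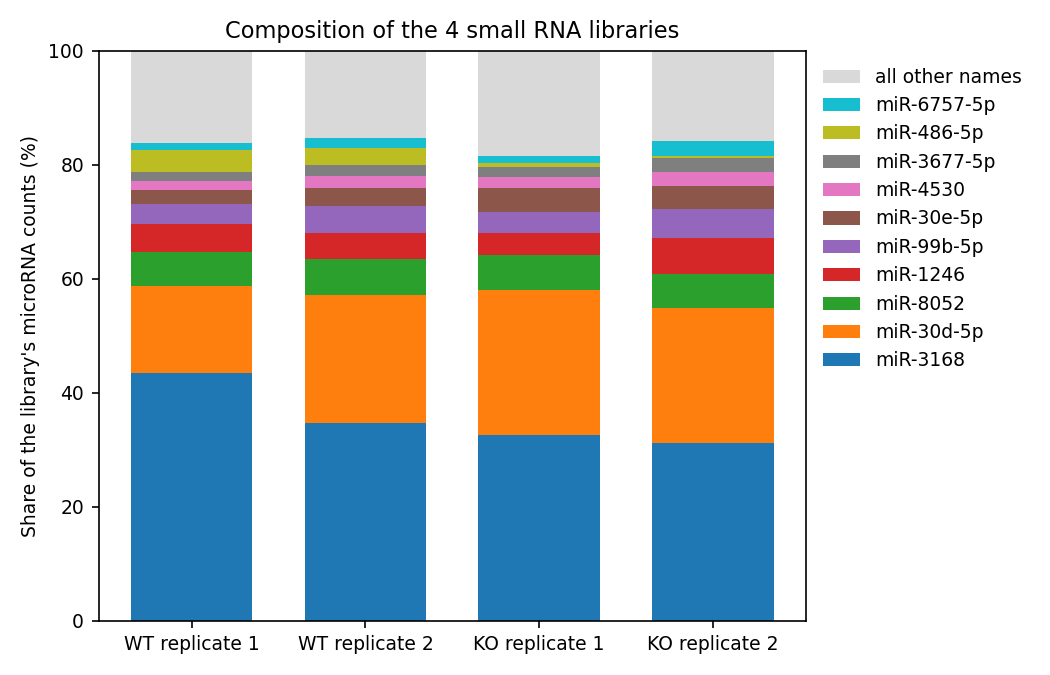
Share of each library's microRNA counts (%) taken by the 10 most abundant names and by all other names, as stacked bars for the 2 WT and 2 KO libraries. miR-3168 fills 43.4% of WT replicate 1 and 31.1% to 34.7% of the other 3 libraries, and the band of miR-486-5p is narrower in both KO libraries.

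Composition summed over names could not pass a test with 2 libraries in each group. The 10 most abundant names of each library took 86.4% ± 0.776 (SD, n = 2) of the counts on the names described in WT and 86.1% ± 1.72 in KO (exact two-sided permutation test over libraries, p = 1). The effective number of names, the exponential of the Shannon entropy, was 10.5 and 11.2 in WT and 11.7 and 12.3 in KO. Both KO values were above both WT values (mean 10.8 ± 0.511 against 11.99 ± 0.381, exact permutation p = 0.3333, the smallest that 2 against 2 libraries can give). With miR-3168 and miR-8052 left out, the means were 17.1 ± 3.35 in WT and 14.8 ± 0.298 in KO, the reverse order. The libraries then stood at 19.4 and 14.7 in WT and 14.6 and 14.995 in KO, so the groups overlapped and WT replicate 1 alone made the WT mean the higher. The 5p arms held 89.2% ± 3.14 of counts on names with an arm suffix in WT and 91.9% ± 0.894 in KO (exact permutation p = 0.667).

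Names given high numbers, which were entered late in the microRNA registry, carried much of the signal. Names numbered 1000 or higher held 60.4% ± 5.51 of counts in WT and 55.6% ± 2.97 in KO, and without miR-3168 and miR-8052 they held 26.3% ± 2.32 and 27.2% ± 5.99. The names described that had a sequence held 70.9% of all microRNA counts, as a mean of the libraries, and miR-30d-5p and both arms of miR-486 were not among them. Of these counts, 67.8% and 61.3% in WT and 58.1% and 58.8% in KO lay on mature sequences under 20 nt, without overlap (64.6% ± 4.60 against 58.5% ± 0.520). Without miR-3168, which is 17 nt long, and miR-8052 these shares were 28.9% ± 1.997 and 27.6% ± 4.79. A 5′ U, the most usual first base of human microRNAs, opened 42.3% of the 359 sequences and 36.8% of all 2367 sequences of names in the files. Of counts on names with a sequence it opened 14.7% and 16.03% in WT and 18.3% and 18.2% in KO, again without overlap (15.4% ± 0.933 against 18.3% ± 0.0693), and 41.0% ± 1.88 and 40.4% ± 2.44 without miR-3168 and miR-8052. Across the 359 names the fitted log2 fold change had a Spearman rho of 0.02 with GC content and 0.08 with length, both across names that share the same 4 libraries.

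In the comparison of KO with WT, both arms of miR-486 fell and no other name passed the test. The edgeR quasi-likelihood test with Benjamini-Hochberg adjustment called 2 of the names tested (0.485%), 0 higher (0.0%) and 2 lower in KO (0.485%). An unadjusted p under 0.05 was reached by 13 names, 6 higher and 7 lower. DESeq2 called 5 (1.21%), of which 2 were higher (0.485%) and 3 lower (0.728%). Blocked by date, edgeR called 6 (1.46%), 3 higher (0.728%) and 3 lower (0.728%). The median log2 fold change of all names tested was 0.05, and it moved to 0.21 when libraries were scaled by their totals alone. CPM below uses library sizes scaled by the trimmed mean of M values (TMM), so it can differ from a share of counts.

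miR-486, a microRNA abundant in red cells and muscle, had 8821 and 7753 counts of its 5p arm in WT and 926 and 1328 in KO. In CPM these were 39200 and 32876 against 5298 and 3981, with no overlap between the groups. The mean went from 36038 ± 4472 to 4640 ± 931 CPM (SD, n = 2), a log2 fold change of -2.96 ± 0.31 (SE, adjusted p = 0.00867). It was -2.89 at the first date and -3.04 at the second.

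The 3p arm moved with it, though neither arm had a RefSeq position here, so overlap with names on the opposite strand was not examined. miR-486-3p had 2375 and 2361 counts in WT and 276 and 395 in KO, and its mean was 10283 ± 384 CPM in WT and 1382 ± 279 CPM in KO (-2.90 ± 0.34 on the log2 scale, adjusted p = 0.00979). The 5p arm held 78.8%, 76.7%, 77.0% and 77.1% of the hairpin's counts in WT replicates 1 and 2 and KO replicates 1 and 2. The WT replicates lay on either side of both KO values. Their Wilson 95% intervals were 78.0% to 79.5% and 75.8% to 77.5% in WT and 74.6% to 79.3% and 75.0% to 79.0% in KO, and arm use was not called (adjusted p = 0.977). Both calls were lost without WT replicate 1 (adjusted p = 0.996 for each arm), without WT replicate 2 (0.918 for each) and without KO replicate 1 (0.0809 for each), and kept without KO replicate 2 (0.0144 for the 5p arm and 0.0253 for the 3p arm). Each of these fits leaves 1 library in a group, whose spread is taken to be that of the other group. The log2 fold changes in them ran from -3.31 to -2.77 for the 5p arm and from -3.25 to -2.70 for the 3p arm. Of the other erythroid markers, miR-451a and miR-144, neither had enough counts to be tested. The whole erythroid list took 4.74% and 3.80% of counts in WT and 0.762% and 0.499% in KO, nearly all of it miR-486.

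**Figure D2:**
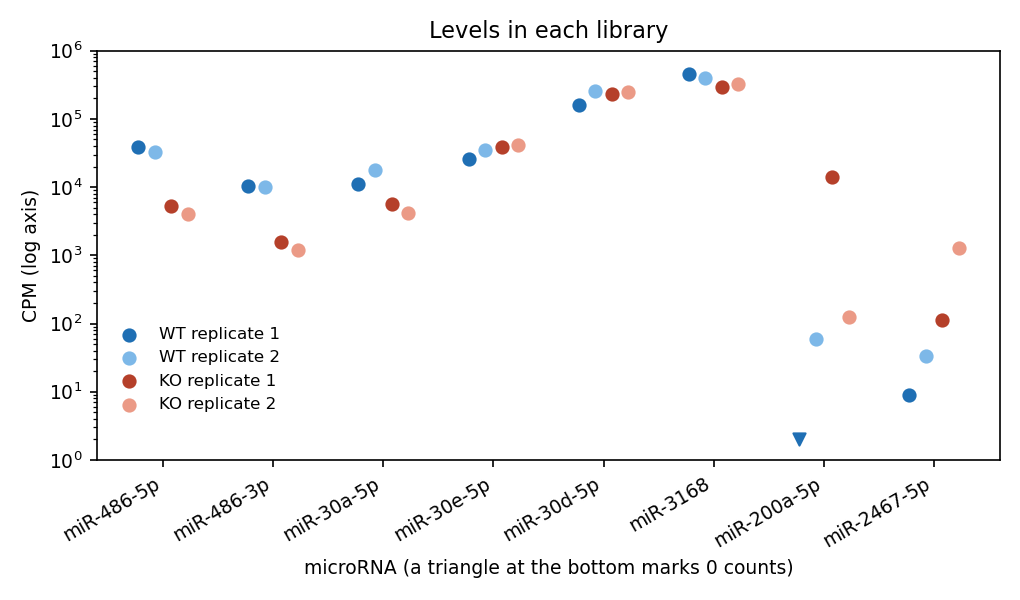
CPM on a log axis of 8 microRNAs in each library, with dark and light blue points for WT replicates 1 and 2, dark and light red points for KO replicates 1 and 2, and a triangle at the bottom for 0 counts. Both arms of miR-486 and miR-30a-5p are lower in both KO libraries, while miR-200a-5p stands high in KO replicate 1 alone.

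Within the miR-30 family, which is expressed in most human tissues, miR-30a-5p stood lower and miR-30e-5p higher in both KO libraries, and neither was called. miR-30a-5p (chr6:71403595-71403616, minus strand) took 1.06% and 1.56% of all counts in WT and 0.633% and 0.399% in KO. Its CPM was 11128 and 17657 in WT and 5716 and 4146 in KO, without overlap. The log2 fold change was -1.55 ± 0.36 and missed the threshold (adjusted p = 0.448). It passed under DESeq2 (adjusted p = 2.65e-04) and in the edgeR fit blocked by date (adjusted p = 4.27e-08). In the same fit with the dates of KO crossed it did not pass (adjusted p = 0.104). With 1 library left out the log2 fold change ran from -1.94 to -1.17.

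miR-30e-5p had 5840 and 8146 counts in WT and 6669 and 13929 in KO, and 25952 and 34542 CPM against 38157 and 41760. The groups did not overlap, and the log2 fold change of 0.40 ± 0.27 was not called (adjusted p = 0.997). miR-30d-5p had a log2 fold change of 0.21 ± 0.27 with overlapping groups (adjusted p = 0.997). miR-30c-5p had 25 and 7 counts in WT and 9 and 20 in KO.

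The mature miR-30a-5p and miR-30e-5p are both 22 nt long and differ by 1 substitution, C13U, counted from the 5′ end of miR-30a-5p. Of the counts on these 2 names miR-30a-5p held 30.01% (Wilson 95% interval 29.0 to 31.0) and 33.8% (33.0 to 34.7) in WT. In KO it held 13.0% (12.3 to 13.8) and 9.03% (8.59 to 9.50). The mean share was 31.9% ± 2.70 in WT and 11.0% ± 2.83 in KO. A test of the use of members within families of 1 seed, chosen after these values were seen, covered 23 families. The GUAAACA family, which holds miR-30a-5p, miR-30c-5p and miR-30e-5p, had the smallest p of them (0.00972), and it was not called (adjusted p = 0.224). Together these 3 names held 3.55% and 4.62% of counts in WT and 4.87% and 4.42% in KO, with overlap between the groups and a log2 fold change of -0.11 ± 0.25. That sum leaves out miR-30d-5p, the most abundant miR-30 name, which had no sequence in the table and was counted as a single name. The miR-30 list with all its arms held 18.9% and 27.0% in WT and 30.4% and 28.1% in KO, mostly miR-30d-5p.

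The AUUGCAC seed is shared by miR-92a-3p, miR-92b-3p, miR-25-3p and miR-363-3p. miR-92b-3p (chr1:155195237-155195258, plus strand) had 237 and 204 counts in WT and 121 and 62 in KO, with a log2 fold change of -1.13 ± 0.66 (adjusted p = 0.997). Its groups did not overlap in CPM (1053 and 865 against 692 and 186). miR-25-3p had 639 and 572 counts in WT and 576 and 723 in KO (0.05 ± 0.37), and miR-92a-3p had a log2 fold change of -0.39 ± 0.33. The family took 1.90% and 1.29% of counts in WT and 1.77% and 1.08% in KO, with replicate 1 higher in each group.

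Summing counts by seed changed little. Of the seed families and single names tested, 2 were called (0.462%), 0 higher (0.0%) and 2 lower (0.462%), and these were the arms of miR-486, each as a name of its own. Both calls were lost, with 0 left, when libraries were scaled by their totals alone. Only 25 families had 2 or more names of 40 or more counts. The let-7 seed family GAGGUAG, whose members repress HMGA2 and LIN28 messenger RNAs, held 226 and 306 counts in WT and 192 and 447 in KO (log2 fold change -0.05 ± 0.39). The AAAGUGC family, with miR-17-5p, miR-106a-5p, miR-20a-5p and miR-93-5p, held 45 and 78 counts in WT and 202 and 88 in KO. miR-17-5p and miR-106a-5p had the same counts in every library, and both entered this sum. Whether the same reads were counted under both names was not tested. The family's log2 fold change of 1.36 ± 0.85 was not called (adjusted p = 0.999).

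Among names with a mean of 100 CPM or more and the same direction at both dates, those of smallest p are given next. On the lower side, miR-4298 had 46 and 44 counts in WT and 4 and 7 in KO, a close agreement of replicates for so few counts (log2 fold change -3.13 ± 1.06, adjusted p = 0.997). miR-153-5p had 458 and 971 CPM in WT and 263 and 237 CPM in KO (-1.51 ± 0.60). miR-148a-3p, whose family includes miR-148b and miR-152, had 73 and 57 in WT and 13 and 34 in KO (-1.67 ± 0.81).

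miR-7851-3p had 44 and 72 counts in WT and 15 and 14 in KO (-1.98 ± 0.91). Both miR-7851-3p and miR-4298 passed the minimum of 40 counts through WT alone. miR-151a-5p, from an intron of PTK2, had 79 and 45 in WT and 14 and 26 in KO (-1.77 ± 0.85). miR-21-5p (chr17:59841273-59841294, plus strand), which is raised in many tumours, had 711 and 645 CPM in WT and 200 and 480 CPM in KO (-0.99 ± 0.60). miR-501-3p, from a cluster in CLCN5 on the X chromosome, had 321 and 306 counts in WT and 129 and 326 in KO (-0.67 ± 0.39). None of these 7 names was called (adjusted p = 0.997 for each), and the CPM of their groups did not overlap, which was so for 30.1% of all names tested.

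On the higher side, miR-4753-3p had 5 and 10 counts in WT and 20 and 426 in KO (log2 fold change 4.41 ± 1.21, adjusted p = 0.613). miR-2467-5p had 2 and 8 in WT and 20 and 420 in KO (4.97 ± 1.31, adjusted p = 0.613). KO replicate 2 held most of the counts of both names, and both passed the minimum of 40 counts through KO alone. Both were called by DESeq2 (adjusted p = 0.00449 and 0.00161) and in the fit blocked by date (adjusted p = 0.0133 and 0.00138). miR-378a-3p, from an intron of PPARGC1B, had 17.8 and 153 CPM in WT and 292 and 318 CPM in KO (1.83 ± 1.08). miR-7977 had 169 and 288 CPM in WT and 606 and 417 CPM in KO (1.16 ± 0.64). Neither was called.

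A further 4 of the higher names formed a group with 1 profile. miR-1275 had 101 and 33 counts in WT and 105 and 273 in KO, miR-8074 had 88 and 31 against 88 and 248, miR-7112-3p had 87 and 36 against 92 and 268, and miR-6083 had 87 and 45 against 92 and 248. miR-6795-5p, named after its values were seen, ran with them, at 458 and 161 CPM in WT and 561 and 785 CPM in KO, where miR-1275 had 449 and 140 against 601 and 818. WT replicate 2 was the lowest library for all 5. The longest run of letters shared with miR-1275 was 10 nt for miR-6795-5p, 9 nt for miR-6083 and 4 nt for miR-8074. The log2 fold changes of the first 4 lay between 1.14 and 1.30, each with an adjusted p of 0.997. Whether the same reads were counted under several of these names was not tested.

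**Figure D3:**
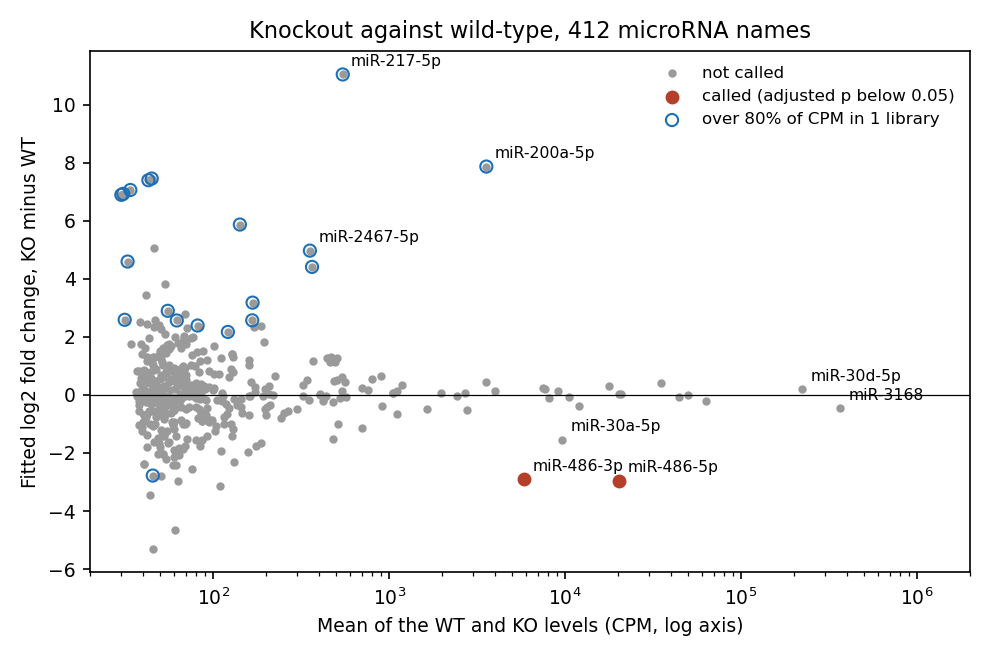
Fitted log2 fold change (KO minus WT) against the mean of the WT and KO levels in CPM (log axis) for the names tested, with called names in red and names with over 80% of their summed CPM in 1 library ringed in blue. The arms of miR-486 are the only red points, most large positive values are ringed, and for names at 0 in both WT libraries the plotted value depends on the fit's prior count and is no bound.

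The groups did not overlap in CPM for 124 of the names tested (30.1%), with 72 higher in KO (17.5%) and 52 lower (12.6%). Non-overlap of 2 against 2 libraries gives an exact two-sided permutation p of 0.3333, so by itself it does not show a difference. The sign of the difference, taken with 1 count added, was the same at both dates for 193 names (46.8%). A name at 0 in both libraries of a date, such as miR-137-3p at the first, took its sign there from library sizes alone.

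Names counted almost wholly in 1 library were mostly names of KO replicate 2. For 19 names over 80% of the summed CPM came from 1 library: 15 from KO replicate 2, 3 from KO replicate 1, 1 from WT replicate 1 and 0 from WT replicate 2. The case with most counts was miR-200a-5p (chr1:1167878-1167899, plus strand), from a hairpin of the epithelial miR-200 family, with 0 and 14 counts in WT and 2462 and 41 in KO. KO replicate 1 alone held 98.7% of its summed CPM, and the log2 fold change of 7.87 ± 3.63 was not called (adjusted p = 0.997). Without KO replicate 2 the adjusted p was 0.00519, since KO replicate 1 then stood alone for its group. The 3 tested epithelial names all had positive log2 fold changes (median 0.90), and none was called. miR-200c-3p gave no such rise, with 54 and 77 counts in WT and 96 and 58 in KO.

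miR-217-5p (chr2:55983020-55983042, minus strand), best known from pancreatic acinar cells, had 0 and 0 counts in WT and 380 and 1 in KO. Taken against 3 counts over the WT group, the pooled KO counts were 127-fold higher per library total and 115-fold higher with TMM sizes. These folds include no error of the KO counts and are no bound for the KO group, since KO replicate 2 had 1 count. KO replicate 1 alone carried the value and brought the name past the minimum of 40 counts. miR-217-5p was not called (adjusted p = 0.997). The edgeR fit blocked by date called it (adjusted p = 4.31e-10), on the counts of that same library. The other 5 names at 0 in both WT libraries were miR-137-3p, miR-4522, miR-4666b, miR-6860 and miR-7159-5p, and 4 of these 5 were counted in KO replicate 2 alone. All 5 passed the minimum of 40 counts through KO alone. miR-4478 had 13 and 2 counts in WT and 1 and 199 in KO, and miR-4537 had 0 and 2 against 0 and 186. These names, too, passed the minimum through KO alone. The arms of miR-93, from the miR-106b-25 cluster in MCM7, fell in different libraries: the 3p arm had 13 and 9 against 0 and 190, and the 5p arm 0 and 12 against 48 and 0.

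Agreement between replicates was closer at higher abundance. For the 282 names with 40 to under 100 counts over the 4 libraries, the median absolute log2 ratio of CPM (with 1 count added) was 1.47 between the WT replicates and 1.23 between the KO replicates. For the 67 names with 100 to under 300 counts these were 0.93 and 1.01, and for the 32 names with 300 to under 1000 counts 0.66 and 0.51. For the 19 names with 1000 to under 10000 counts they were 0.32 and 0.42, and for the 12 names with 10000 or more 0.44 and 0.43. The step between the last 2 classes depended on the scaling: without miR-3168 and miR-8052 the values went from 0.46 and 0.48 to 0.30 and 0.33. Counting error alone would give 0.47 and 0.44 in the lowest class and 0.02 and 0.02 in the highest.

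KO and WT libraries of the same date differed about as much as replicates did. In the lowest class the median absolute log2 ratio of KO to WT was 1.50 at the first date and 1.16 at the second, and in the highest class 0.47 and 0.28. Counted name by name, 250 names (60.7%) differed between the WT replicates beyond a 95% counting interval, and 228 (55.3%) did between the KO replicates. Between KO and WT the numbers were 221 (53.6%) at the first date and 235 (57.0%) at the second. In the highest class 11 of 12 names differed between the WT replicates beyond counting error and all 12 between the KO replicates. The common biological coefficient of variation fitted by edgeR was 94.7%.

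**Figure D4:**
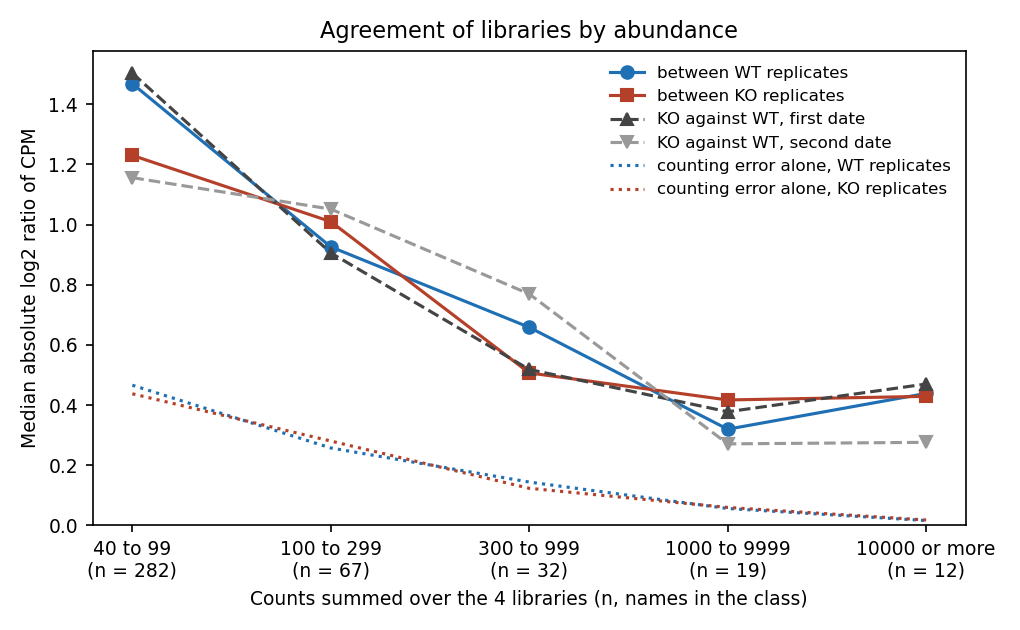
Median absolute log2 ratio of CPM between libraries in 5 classes of summed counts, for WT replicates, KO replicates and KO against WT at each date, with dotted lines for the value that counting error alone would give. All 4 measured lines fall from between 1.16 and 1.50 in the lowest class to between 0.28 and 0.47 in the highest and stay above the dotted lines.

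These spreads set what the comparison could show. The standard errors of the log2 fold changes had a median of 1.80 for names of the lowest class, then 0.99, 0.61, 0.37 and 0.32 in the classes above it. As a fold to either side, an interval built on these errors with the 95% multiplier of a normal distribution came to 11.5, 3.85, 2.29, 1.64 and 1.54. The F tests had few degrees of freedom, so 95% intervals from them would be wider. Counting error alone would give 1.88, 1.45, 1.21, 1.09 and 1.02. These are medians without adjustment for the number of names, and the 6 names at 0 in both WT libraries were left out. Single errors ran from 1.02 to 3.84 in the lowest class and from 0.21 to 0.42 in the highest, and a name that missed the threshold is not shown to be the same in both groups.

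The microRNAs that have been linked to BCDIN3D were at or near the limit of detection. miR-145-5p was not counted in any library, which allows up to 8.65 CPM in the deepest of them and 19.02 CPM in the shallowest. miR-145-3p had 9 counts and miR-23b-5p had 2, all in WT replicate 2. The counts of miR-23b-3p were 6 and 24 in WT and 5 and 1 in KO. None of these names reached 40 counts, so none was tested.

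Other lists of related names gave 0 calls by edgeR, and the names they held at an unadjusted p under 0.05 were miR-30a-5p and miR-1224-3p. Of 11 tested let-7 family names 6 had a positive and 5 a negative log2 fold change (median 0.14), and let-7a-5p had 113 and 124 counts in WT and 100 and 187 in KO. The 4 tested names of the miR-106b-25 cluster were all positive (median 1.69), though miR-25-3p held most of the cluster's counts. The 3 tested names of the miR-183-96-182 cluster were all negative (median -0.52), except with scaling by library totals alone, where 1 of them was positive, with miR-183-5p at 913 and 583 counts in WT and 483 and 596 in KO. Of 5 tested names of the miR-17-92 cluster 4 were positive (median 0.66). The 3 tested names that overlap tRNA sequence were all negative (median -0.99), led by miR-4454 with 40 and 37 counts in WT and 12 and 33 in KO. Of 7 tested names of the imprinted 14q32 cluster 6 were positive (median 0.37) and 7 with library totals alone, among them miR-665 with 818 and 1302 CPM in WT and 612 and 1721 CPM in KO. The other counts of positive and negative names given here were the same with library totals alone and with relative log expression size factors. All these medians stand beside 0.05 for all names tested.

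Mirtrons, which are spliced introns that bypass Drosha, had 2 tested names with log2 fold changes of opposite sign. miR-1224-3p had 18 and 36 counts in WT and 1 and 1 in KO, a ratio of counts of 0.0369 (exact 95% interval 0.00436 to 0.139), and was not called (adjusted p = 0.997). miR-877-5p had 0 and 24 counts in WT and 16 and 21 in KO. miR-191-5p, an abundant name in many cell lines, had only 31 and 7 counts in WT and 0 and 41 in KO.

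Markers of other cell types were scarce outside miR-486 and miR-200a-5p. Epithelial names took 0.0313% and 0.0634% of counts in WT and 1.64% and 0.0545% in KO, the high value being miR-200a-5p in KO replicate 1. Neural names took 0.0208% and 0.0158% in WT and 0.00951% and 0.0490% in KO, led by miR-9-5p with 21 and 13 counts in WT and 2 and 119 in KO. Pluripotent names lay between 0.0136% and 0.0320% in every library, mesenchymal names between 0.00762% and 0.0304%, and muscle names between 0.00551% and 0.0120%. The liver marker miR-122 and the endothelial marker miR-126 had at most 8 counts in any library.

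No hairpin passed the test for a change of arm use. Both arms were named for 863 hairpins, and 270 had enough counts to be tested for a change of the 5p to 3p ratio. The edgeR test of arm by group called 0 of 270 (0.0%). An unadjusted p under 0.05 was reached by 14 hairpins, the smallest adjusted p was 0.574, and with the date as a block it was 0.943.

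Well counted hairpins gave nearly all counts to 1 arm. Of the 30 tested hairpins with 300 or more counts, 25 gave under 10% of them to the minor arm. Hairpins with under 10 counts on an arm, such as miR-30a, were not tested and are not among the 30. For miR-30d, miR-99b, miR-30e, miR-3677 and miR-6757 the 5p arm held over 99% in every library. miR-182 gave 98.8% and 94.7% to its 5p arm in WT and 97.6% and 98.2% in KO, so its lowest and highest values were the WT replicates. miR-140 and miR-148b leaned as far towards the 3p arm, with 5p shares of at most 2.55% in any library. Beside them miR-486, with about 77% on the 5p arm in each library, was the most even of the hairpins with 10000 or more counts.

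At lower counts the leading arm itself was unsteady. Of the 80 tested hairpins with 10 or more counts in each library, 46 had the same leading arm in all 4. The leading arm differed between the WT replicates for 21 and between the KO replicates for 22. In 2 hairpins, miR-4668 and miR-7107, it was the same within each group and different between groups. miR-7107 had 5p shares of 12% and 47.8% in WT and 81.3% and 75.9% in KO (adjusted p = 0.735), and miR-4668 had 64.5% and 66.7% against 13.0% and 48.8% (adjusted p = 0.948). Over the 80 hairpins the median absolute difference in 5p share was 8.47 points between WT replicates and 11.0 points between KO replicates. Between KO and WT it was 12.1 points at the first date and 13.1 points at the second.

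Of the 8 hairpins of smallest p, miR-25 and miR-6795 rested on the most counts. The 5p share of miR-6795 was 83.7% and 80.9% in WT, where its 3p arm had 20 and 9 counts. In KO it was 100% in both libraries, on 98 and 262 counts, with Wilson 95% lower bounds of 96.2% and 98.6%. The groups did not overlap, with an unadjusted p of 0.0167 and an adjusted p of 0.574. Its 5p arm is the name that ran with miR-1275. miR-25, nearly all 3p, had 22 and 2 counts on its 5p arm in WT and 0 and 0 in KO (adjusted p = 0.574), so WT replicate 1 carried that value. miR-3927 and miR-137, of smaller p still, were each counted in only 1 WT and 1 KO library. The rest had 139 counts or fewer in all, each with an adjusted p of 0.574. The 5p share of miR-4769 was 0% and 0% in WT and 63.2% and 42.6% in KO. For miR-3059 it was 0% and 0% against 86.7% and 100%, and for miR-6796 61.1% and 93.8% against 0% and 0%. For miR-6840 it was 0% and 10% against 100% in KO replicate 1, and KO replicate 2 had 0 counts.

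Some low hairpins differed between groups in the same direction at both dates without passing the test. miR-148a gave 8.75% and 5.00% to its 5p arm in WT and 27.8% and 24.4% in KO (adjusted p = 0.948), on 10 counts of that arm in WT and 16 in KO. miR-378a gave 73.3% and 32.1% in WT and 13.6% and 11.7% in KO (adjusted p = 0.851). miR-28 gave 78.6% and 40% in WT and 3.85% and 22.0% in KO (adjusted p = 0.836). The intervals of single libraries were wide, for example 48.0% to 89.1% for miR-378a in WT replicate 1. These 3 hairpins and miR-93 were chosen after their values were seen. miR-93 went from 0% and 57.1% on its 5p arm in WT to 100% and 0% in KO, which gives the KO replicates the opposite arms.

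**Figure D5:**
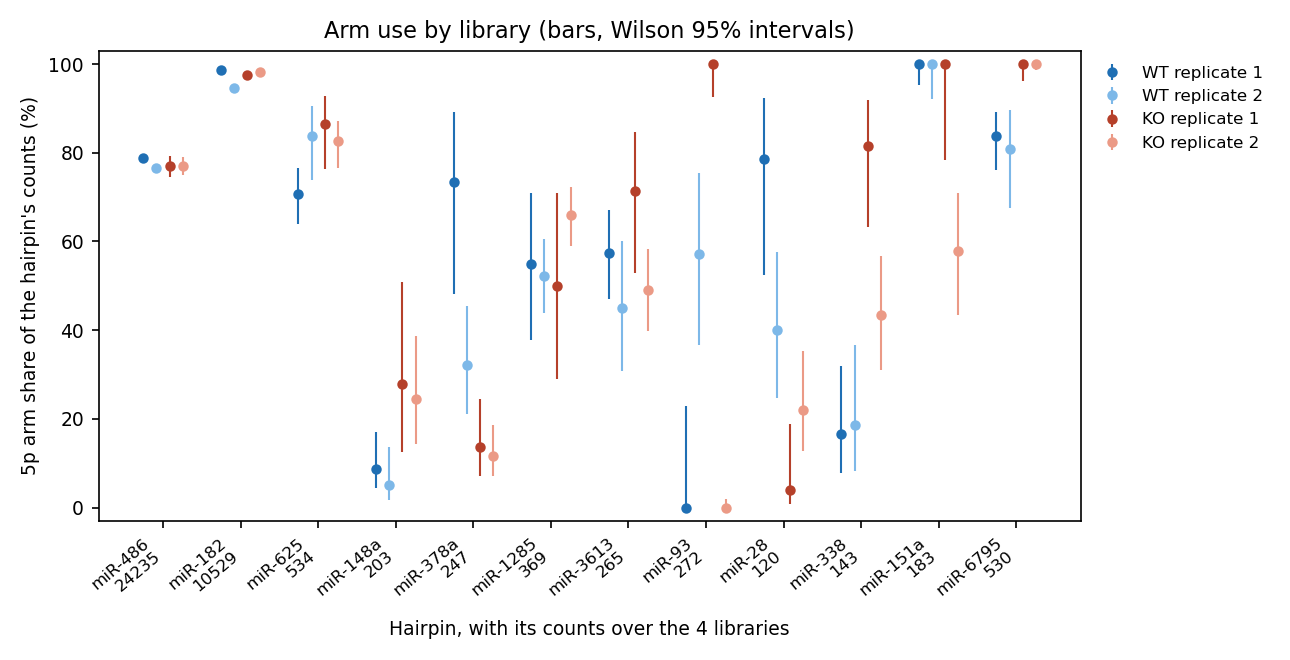
Share of a hairpin's counts on its 5p arm (%) in each library for 12 hairpins, with Wilson 95% intervals as bars, dark and light blue for WT and dark and light red for KO. miR-486 stays between 76.7% and 78.8% in all 4 libraries, while the KO replicates of miR-93 sit at 100% and 0%.

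Part of the counts could not be assigned to 1 name. Of the names described, 14 had the same counts as another name in every library. miR-17-5p and miR-106a-5p share a run of 22 nt and both had 9 and 23 counts in WT and 43 and 42 in KO. Among names with a RefSeq position, which the arms of miR-486 lacked, 6 pairs overlapped on opposite strands. Of these 6 pairs, 3 had the same counts in every library. miR-103a-3p and miR-103b, printed above, are such a pair (chr5:168560904-168560926 and a second locus, opposite strands), and both had 201 and 273 counts in WT and 192 and 354 in KO. The others were miR-423-5p with miR-3184-3p and miR-338-3p with miR-3065-5p. The 5p share of miR-338, at 16.7% and 18.5% in WT and 81.5% and 43.4% in KO, therefore rests on a 3p arm whose reads cannot be told from those of miR-3065-5p. The other 3 pairs, among them miR-24-3p with miR-3074-5p (41 and 41 in WT and 23 and 9 in KO against 32 and 14 and 1 and 10), did not match.

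In 8 hairpins the 5p and 3p arms had the same counts in every library. The largest was miR-4790, with 71 counts on each arm in all, followed by miR-190a with 39. Their arm shares of 1 to 1 carry no information on arm use if each read was counted under both names, which was not tested.

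A pair of abundant names ran together without sharing a locus or a seed. miR-4530 (chr19:39409629-39409646, minus strand) had 3923 and 5593 counts in WT and 2981 and 8457 in KO, and miR-3677-5p (chr16:2270715-2270736, plus strand) had 3826 and 5414 against 2918 and 8206. The ratio of the first to the second was 1.03, 1.03, 1.02 and 1.03 in the 4 libraries. The longest run of letters they share is 4 nt. Their log2 fold changes were 0.04 ± 0.32 and 0.05 ± 0.32, and neither was called (adjusted p = 0.997).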

How the data were processed

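Small RNA of 2 WT and 2 KO HAP1 libraries was analysed from 1 deposited file per library with a raw count per mature microRNA name, without normalisation by the authors. The submitters' processing notes list cutadapt, FastQC, featureCounts, SAMtools, STAR and Subread, with build hg38. Versions and roles, the annotation, the strand setting and the treatment of reads with several matches were not given in the sources used here. A row named with an asterisk held 0 counts and was left out, as were names under 40 counts over the 4 libraries. RNA-seq counts deposited by the authors for the same RNA were used for BCDIN3D only.

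Groups came from the sample titles. Counts were fitted in R 4.3.3 with edgeR 4.0.16 (TMM, robust quasi-likelihood F test, KO against WT, no block), with Benjamini-Hochberg adjustment over all names tested and a threshold of 0.05. Arm use was tested with edgeR's diffSpliceDGE over hairpins with 40 or more counts and 10 or more on each arm. Seed families were summed over names with the same bases 2 to 8. DESeq2 1.42.0, another normalisation, other count filters, fits without miR-3168 and miR-8052 and fits without each library were alternatives. Tests of single values per library were exact permutation tests. A standard error is the log2 fold change divided by the square root of F. The fitting code was tested on simulated data. Sequences and positions are RefSeq's (GRCh38.p14).

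The replicate numbers of the 2 groups share a date in the titles. The correlation across the names tested of the replicate 2 minus replicate 1 difference, WT against KO, was -0.13. Most of these names had few counts, so this value cannot exclude a date effect on single names. miR-99b-5p was higher in replicate 2 of both groups and miR-92a-3p in replicate 1 of both, and a date effect was not tested.

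Members and lists were chosen with earlier results of these data known. Named are the 15 most abundant names, every called name and both arms of miR-145 and miR-23b. So are the 12 each way of smallest p with the same direction at both dates and a mean of 100 CPM or more. Direction was taken with 1 count added. Arm use is given for most of the 12 hairpins with most counts and for the 8 of smallest p. For the lists described, only some of the most abundant members are named. Other names were chosen after their values were seen.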

Additional observations from a re-analysis of the deposited data

How the results depend on the processing

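The 2 called names, the arms of miR-486, were also the calls with library totals alone, with RLE size factors, without miR-3168 and miR-8052, with filterByExpr, without the robust option and with 1 row of each identical set. There were 5 calls without a count filter, 5 with 100 or more counts, 5 with DESeq2 and 0 to 4 when 1 library was left out. With the date as a replicate block there were 6 calls. With the dates of KO crossed, a pairing chosen after seeing the data, there were 5. Hairpins with changed arm use stayed at 0 under every alternative run, the replicate block and each left-out library included. Seed families called were 0 with library totals alone, 5 with the replicate block, 4 with DESeq2 and 0 to 6 with 1 library left out. The KO minus WT difference in the share of the 10 most abundant names, -0.38 points, became 1.41 without miR-3168 and miR-8052 and ran from -1.59 to 0.84 with 1 library left out. The difference in the effective number of names, 1.17, became -2.27 without miR-3168 and miR-8052.

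The median absolute log2 ratio between WT replicates, 1.07, was 1.11 with 0.5 counts added, 1.02 with 2 counts added and 1.13 without miR-3168 and miR-8052. Between KO replicates, 1.06, it was 1.09, 0.97 and 1.03 in the same settings and 1.03 with library totals alone.

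Of 36 named microRNAs, 26 kept their direction under every alternative run, and the values of the other 10 follow. The fold of 14 of these 26 moved by over 1.5 times with 1 library left out. Among them the log2 fold change ran from 0.996 to 4.06 for miR-378a-3p, from -2.50 to -0.47 for miR-92b-3p, from 0.66 to 2.34 for miR-1275 and from 1.80 to 5.14 for miR-4753-3p. Scaled by library totals alone, the log2 fold change was 0.14 for miR-1246, 0.081 for miR-99b-5p, 0.069 for miR-182-5p and 0.038 for miR-1290. miR-4530 and miR-3677-5p went to -0.018 and -0.014 with RLE size factors, to -0.018 and -0.014 with DESeq2, to -0.044 and -0.04 with filterByExpr, to -0.095 and -0.091 without a filter and to -0.036 and -0.032 with 100 or more counts. With 1 row of each identical set miR-4530 was at -0.002. With 1 library left out, the value ran from -0.084 to 0.57 for miR-30d-5p, from -0.51 to 0.23 for miR-1246, from -0.48 to 0.25 for miR-99b-5p, from -0.27 to 0.28 for miR-4530 and from -0.26 to 0.28 for miR-3677-5p. It ran from -0.37 to 0.64 for miR-6757-5p, from -0.39 to 0.30 for miR-182-5p, from -0.0079 to 0.33 for miR-548aw, from -0.48 to 0.046 for miR-1290 and from -3.04 to 9.10 for miR-4537. The causes were not tested.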
